A study of Mus musculus with 4 samples.

Results

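The 10 genes described here carry the main steps of cellular iron and heme handling: Tfrc, Trf, Slc11a2, Fth1, Ftl1, Ncoa4, Slc40a1, Hmox1, Aco1 and Ireb2. They were chosen by name for their roles in iron uptake, storage, export, sensing and heme breakdown, and make up 10 of the 15981 genes listed in the series. RNA was sequenced from mouse tumor-infiltrating CD8+ T cells of 2 kinds, Tc1 and Tc9, with 2 libraries each. All cells came from Pmel-1 mice, whose transgenic T cell receptor recognizes a melanoma antigen, and carried Thy1.1. By the paper's general protocol, naive cells were primed with anti-CD3 and anti-CD28 while being polarized. Tc1 cells were polarized with rhIL-2 and Tc9 cells with IL-4, TGF-β and anti-IFN-γ. In some of its experiments Pmel-1 splenocytes were stimulated with peptide instead, and the route for these libraries is not stated. Tc1 and Tc9 cells then received rhIL-2, and culture took 5 days in all. They were transferred into Thy1.2+ mice with B16 melanoma grown for 10 days under the skin, and sorted from the tumors 14 days later. Both groups of hosts received the same adjuvant treatment with cyclophosphamide, dendritic cells and rhIL-2. Cells from several mice were pooled into each library, so the p-values below measure the spread between pools.

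Cells take up transferrin-bound iron through the transferrin receptor, release it from endosomes through a divalent metal transporter, and store the surplus in ferritin, a shell of heavy and light chains. Free ferrous iron can drive lipid peroxidation, and heme oxygenase releases more of it from heme. Iron regulatory proteins, which are the product of Ireb2 and the cluster-free form of the product of Aco1, bind hairpins called iron-responsive elements when iron is scarce. Bound in a 5′ untranslated region (UTR) they block translation, and bound in a 3′ UTR they protect the mRNA from decay. Activated T cells depend on the transferrin receptor to proliferate.

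The iron-responsive elements are shown because they are the sequence feature that the iron regulatory proteins bind, and the search below matched them in 4 of the 10 mRNAs. In the GENCODE transcripts of GRCm38, the transcript strand was searched for an unpaired C, 5 bases, a loop of CAGTGN in which N is not G, and 5 bases that pair with the first 5, with G-T pairs allowed. In these 29-base windows, written 5′ to 3′ as DNA, the loop is in capitals.
Fth1 5′ UTR: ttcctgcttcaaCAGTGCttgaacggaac
Ftl1 5′ UTR: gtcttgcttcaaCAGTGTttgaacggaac
Slc40a1 5′ UTR: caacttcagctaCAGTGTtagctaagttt
Tfrc 3′ UTR, position 3321: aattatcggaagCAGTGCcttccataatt
Tfrc 3′ UTR, position 3700: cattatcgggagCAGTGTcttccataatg
Tfrc 3′ UTR, position 3765: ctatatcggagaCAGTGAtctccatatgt
Tfrc 3′ UTR, position 3812: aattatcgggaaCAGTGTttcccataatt

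The Fth1 element lay at chr19:9982732-9982760 on the plus strand, the Ftl1 element at chr7:45459779-45459807 on the minus strand and the Slc40a1 element at chr1:45925465-45925493 on the minus strand, each in the 5′ UTR within exon 1. The 4 Tfrc elements that the pattern matched lay in the 3′ UTR within exon 19, the last exon, at chr16:32631219-32631247, chr16:32631598-32631626, chr16:32631663-32631691 and chr16:32631710-32631738 on the plus strand. An element of another form would not be matched. The Fth1 and Ftl1 windows shared 26 of 29 letters, and the Tfrc windows shared 18 to 25 of 29 among themselves. Of 20916 genes with a 5′ UTR, 23 (0.11%) held a match there, and of 21039 genes with a 3′ UTR, 100 (0.475%) held a match there. No match was found in the UTRs of Trf, Slc11a2, Ncoa4, Hmox1, Aco1 or Ireb2, which says only that these letters were not in the transcripts searched.

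**Figure D1:**
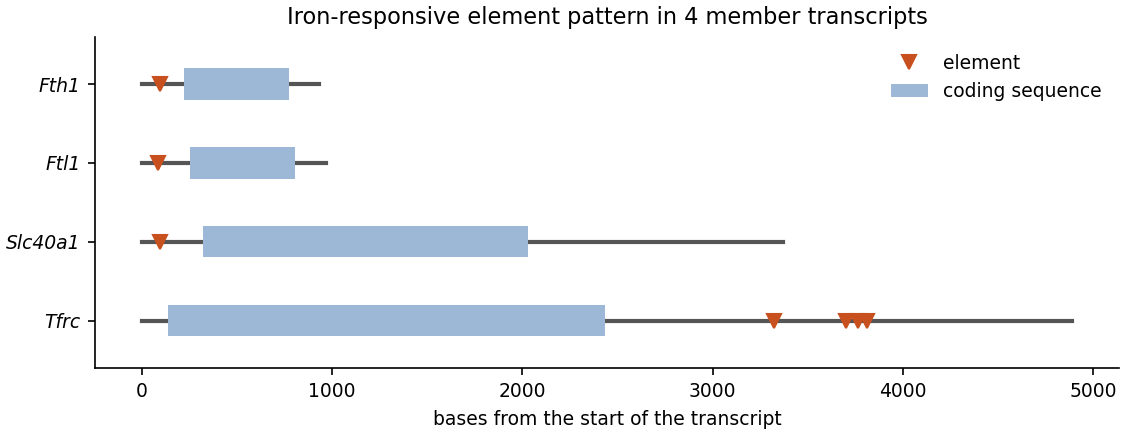
Positions of the iron-responsive element pattern (triangles) along the transcripts of Fth1, Ftl1, Slc40a1 and Tfrc, in bases from the transcript start, with the coding sequence as a box and the UTRs as lines. The elements of Fth1, Ftl1 and Slc40a1 start 93, 84 and 96 bases from the transcript start, before the coding sequence, and the 4 matched elements of Tfrc lie after it.

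Library depth was 30822953 to 31927162 expected counts, summed for Tc9 replicate 2 and estimated for the other libraries from a part of their listed genes. The gene tables used here list genes in the order of their identifiers' digits and run to different points, so that a gene can be read in 1 to 4 libraries. Aco1 was reached by all 4 libraries. Fth1, Ftl1 and Hmox1 were reached by Tc1 replicate 2 and both Tc9 libraries, while Tfrc, Trf and Slc11a2 were reached by the 2 replicate 2 libraries only. Ncoa4, Slc40a1 and Ireb2 were reached by Tc9 replicate 2 alone and were not compared between cell types. The cells carried the signs of their labels: Il9 had 3 counts in Tc1 replicate 2 against 2601 and 2667 in the Tc9 libraries, and Ifng 15303 against 5097 and 4700. All 8 T cell markers were present, with summed counts of 89386 in Tc1 replicate 2 and 85134 in Tc9 replicate 2. Of 12 myeloid markers, 9 had 3 counts or fewer in both replicate 2 libraries, Lyz2 was at 0 in both, and the 11 other than Cd68 summed to 25 counts in Tc1 and 21 in Tc9. Cd68 had 221 counts in Tc1 replicate 2 and 439 in Tc9 replicate 2, so all 12 summed to 246 and 460. The 10 erythroid markers reached summed to 29 and 66 counts, of which Epor gave 18 and 43. The 4 B cell markers summed to 170 and 486, of which Cd79b gave 155 and 473, and the 6 melanoma markers to 82.0 and 134, with Dct, Tyrp1 and Sox10 at 0. In such bulk samples, fewer cells of a type and less RNA per cell cannot be told apart.

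Ferritin light chain was the most abundant of the 10 transcripts, and the levels of the 10 genes ran down to nearly none in FPKM, the number of fragments scaled for transcript length and library depth. In Tc9 replicate 2, the library that reached all 10, the order of levels was Ftl1 (603 FPKM), Fth1 (324), Tfrc (80.3), Ncoa4 (27.8), Ireb2 (11.7), Aco1 (10.2), Slc11a2 (8.61), Hmox1 (5.21), Trf (0.09) and Slc40a1 (0.01). Among the 15442 genes listed in that library, Ftl1 ranked 123, Fth1 185 and Tfrc 925 by FPKM. Ireb2 and Aco1 were 0.21 apart on the log2 scale, and Aco1 and Slc11a2 0.24 apart, each less than the 0.49 that held 95% of the genes with 500 or more counts between the Tc9 replicates. Trf and Slc40a1 rest on 6 and 1 counts, too few to settle their order. The remaining neighbors were further apart than that spread. Slc11a2 and Hmox1 were only just so, at 0.72 against the 0.72 that held 95% of all genes. The spread is the change of the same gene between libraries, and it does not measure error in comparing different genes within a library. In Tc1 replicate 2, the order of the 7 genes reached was Ftl1, Fth1, Tfrc, Hmox1, Aco1, Slc11a2 and Trf, so that Hmox1 stood above Aco1 and Slc11a2 in Tc1 cells and below both in Tc9 replicate 2. The Tc1 levels of Hmox1, Aco1 and Slc11a2 were 10.6, 9.72 and 7.63 FPKM, and these neighbors were within the same spread.

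**Figure D2:**
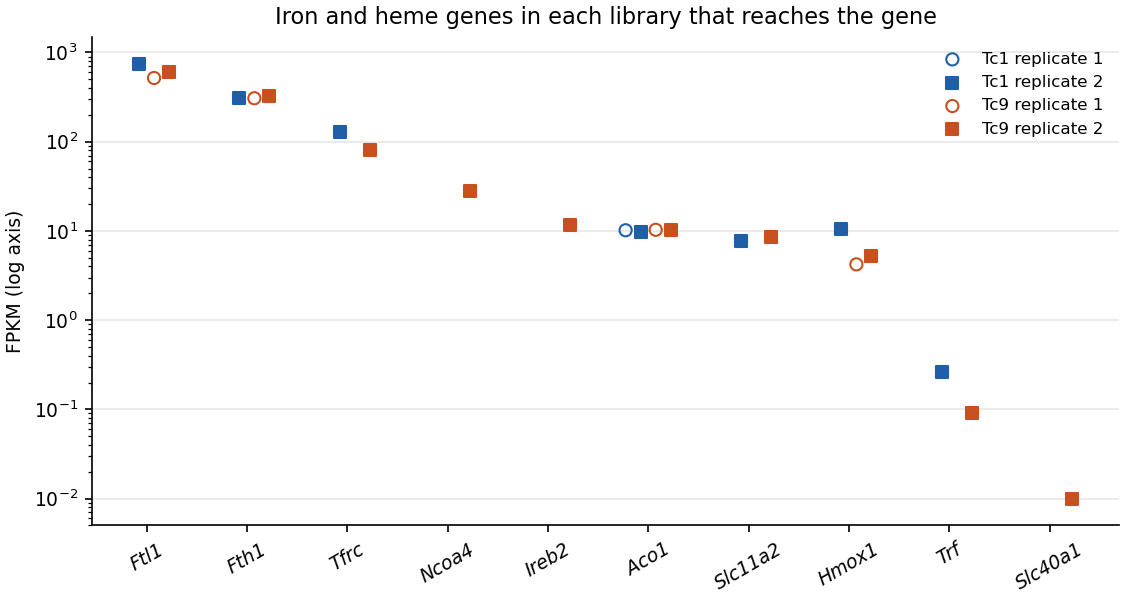
FPKM of the 10 genes (log axis) in each library that reaches the gene, with Tc1 libraries in blue and Tc9 libraries in orange, and replicate 1 as open circles and replicate 2 as filled squares. The Hmox1 point of Tc1 replicate 2 (10.6) lies above both Tc9 points (4.22 and 5.21), while the Aco1 points of all 4 libraries lie between 9.72 and 10.3.

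Iron uptake was led by Tfrc, the transferrin receptor, which was lower in Tc9 than in Tc1 cells in the replicate 2 libraries. Tfrc (gene 22042, chr16:32608896-32632794) had 19529 counts (128 FPKM) in Tc1 replicate 2 and 11846 counts (80.3 FPKM) in Tc9 replicate 2. The Tc9 level was 0.594 of the Tc1 level after scaling, a log2 ratio of -0.75 with a 95% counting interval of -0.78 to -0.72. With 1 library of each kind this difference has no replicate check and no test, so it was set beside the spread between the Tc9 replicates, which was within 0.72 for 95% of 2588 genes and within 0.49 for 95% of the 1562 genes with 500 or more counts. Tfrc lay just beyond the first and clearly beyond the second, but with scaling to depth alone the ratio was -0.67 and fell inside the first. The spread between the Tc1 replicates, over the 1279 genes that both reach, was narrower, within 0.54 for 95% of genes. In the same comparison 25.9% of 6226 genes differed by more than the spread over all genes, and 9.94% were lower in Tc9 by more than it.

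Slc11a2, the transporter DMT1 that moves ferrous iron out of endosomes, was at like levels in both libraries. Slc11a2 (gene 18174, chr15:100387898-100424209) had 774 counts (7.63 FPKM) in Tc1 replicate 2 and 833 counts (8.61 FPKM) in Tc9 replicate 2; the log2 ratio was 0.08 with a counting interval of -0.07 to 0.22. The gene is known for transcripts with and without an iron-responsive element in the 3′ UTR, of a form the pattern above did not match, and the tables give a mean transcript length that moves with their mix. That length was 3312 bases in Tc1 and 3277 in Tc9, a shift of -1.08%, within the 4.20% that held 95% of 979 genes with several transcripts between the Tc9 replicates. Trf, which encodes transferrin, a plasma protein made mainly by the liver, was near the limit of detection. Trf (gene 22041, chr9:103208876-103230286) had 18 counts (0.26 FPKM) in Tc1 replicate 2 and 6 counts (0.09 FPKM) in Tc9 replicate 2. The log2 ratio was -1.35 and its counting interval, -2.90 to -0.33, reached into the spread between replicates.

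Of the ferritin genes, no difference was detected in the heavy chain, and the light chain was lower in both Tc9 libraries by a difference that did not pass the test. Fth1, the chain that oxidizes ferrous iron for storage (gene 14319, chr19:9980600-9985111), had 7883 counts (310 FPKM) in Tc1 replicate 2, 7639 (307 FPKM) in Tc9 replicate 1 and 8011 (324 FPKM) in Tc9 replicate 2. The Tc1 value lay between the Tc9 values. In edgeR's quasi-likelihood fit to these 3 libraries the log2 fold change was -0.04 (SE 0.26, Benjamini-Hochberg adjusted p = 0.941), with a 95% interval of -0.54 to 0.46. Ftl1, the chain that favors core formation (gene 14325, chr7:45457944-45459886), had 19876 counts (741 FPKM) in Tc1 replicate 2, 13593 (517 FPKM) in Tc9 replicate 1 and 15747 (603 FPKM) in Tc9 replicate 2. Both Tc9 values were below the Tc1 value, and the log2 fold change was -0.47 (SE 0.24, edgeR adjusted p = 0.161), with an interval of -0.94 to 0.0016. This fit called 20.4% of 2622 genes at an adjusted p under 0.05, and 7.93% as lower in Tc9. It rests on 1 Tc1 library, which is assumed to vary like the Tc9 libraries, and takes 1 spread trend for all genes. Where both Tc1 libraries could be read, they differed less: 95% of the 788 genes with 500 or more counts were within 0.16 on the log2 scale, against 0.49 for Tc9.

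**Figure D3:**
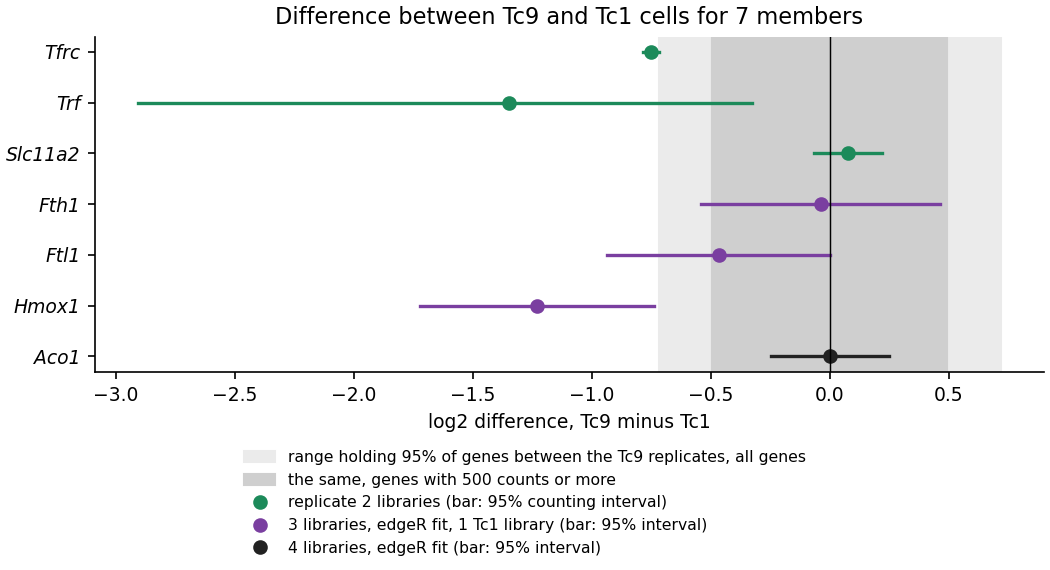
Log2 difference between Tc9 and Tc1 cells (negative is lower in Tc9) for the 7 genes that could be compared, colored by the libraries compared, with bars for the 95% interval of the fit or of counting. The gray bands mark the range that holds 95% of genes between the Tc9 replicates (0.72 for all genes, 0.49 at 500 or more counts); Hmox1 (-1.23) lies outside both bands, and Fth1, Aco1 and Slc11a2 lie near 0.

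Ratios between genes within a library do not depend on scaling between libraries. The ratio of light to heavy ferritin chain FPKM was 2.39 in Tc1 replicate 2, 1.69 in Tc9 replicate 1 and 1.86 in Tc9 replicate 2. On the log2 scale the mean Tc9 ratio was 0.43 below the Tc1 ratio (-0.43), with an SD of 0.10 between the 2 Tc9 libraries. The ratio of Tfrc to Fth1 was 0.411 in Tc1 replicate 2 and 0.248 in Tc9 replicate 2, so the receptor was lower relative to the heavy chain in Tc9 cells. The ratio of Tfrc to Ftl1 was 0.172 and 0.133, and that of Tfrc to Slc11a2 was 16.7 and 9.33. These ratios are descriptions, since only 1 Tc1 library reaches each pair.

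**Figure D4:**
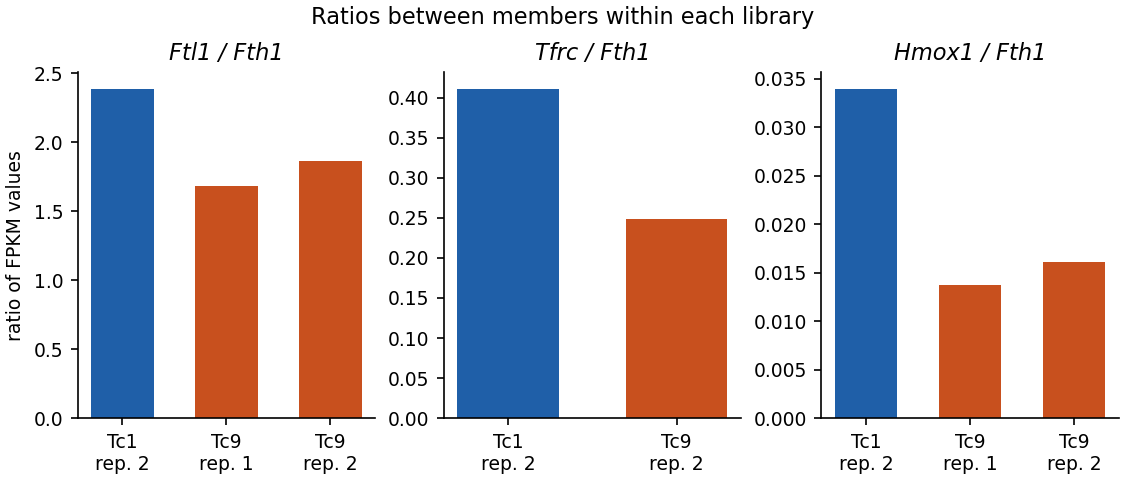
Ratios of FPKM values between pairs of the genes within each library that reaches both, with Tc1 in blue and Tc9 in orange; the axes start at 0 and differ between panels. Each ratio to Fth1 is highest in Tc1 replicate 2: 2.39 for Ftl1, 0.411 for Tfrc and 0.0340 for Hmox1, against at most 1.86, 0.248 and 0.0161 in the Tc9 libraries.

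Ncoa4, the receptor that carries ferritin to the lysosome to free its iron (gene 27057, chr14:32159879-32179855), had 3339 expected counts (27.8 FPKM) in Tc9 replicate 2. The value was not whole, so part of its reads was shared out between genes and its level is uncertain. Slc40a1, which encodes ferroportin, the only known cellular iron exporter (gene 53945, chr1:45908070-45926532), had 1 count (0.01 FPKM) in Tc9 replicate 2, under the floor of 3 counts that a count of 0 would allow. Its 5′ UTR element is thus in an mRNA barely seen in the 1 library that reaches it.

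Of the 4 members with a test, Hmox1 was the one called. Hmox1, the inducible heme oxygenase that opens the heme ring and releases its iron (gene 15368, chr8:75093618-75100593), had 502 counts (10.6 FPKM) in Tc1 replicate 2, 196 (4.22 FPKM) in Tc9 replicate 1 and 240 (5.21 FPKM) in Tc9 replicate 2. Both Tc9 libraries were below the Tc1 library, with a Tc9 mean of 4.71 ± 0.70 FPKM (SD, n = 2), and no value overlapped. Hmox1 fell to 0.426 of its Tc1 level, a log2 fold change of -1.23 (SE 0.25, edgeR adjusted p = 1.48e-05; 95% interval -1.72 to -0.74). The Tc1 arm was 1 library, so this p holds no spread among Tc1 pools. The call depended on the filter on low counts: without that filter the fold change was again -1.23, but Hmox1 was not called. Why the call was lost was not tested. DESeq2 gave an adjusted p of 0.00371 for Hmox1. Relative to Fth1 in the same library, Hmox1 FPKM was 0.0340 in Tc1 and 0.0138 and 0.0161 in the Tc9 libraries. Macrophages express Hmox1 strongly, and the 11 myeloid markers other than Cd68 summed to 25 counts in Tc1 replicate 2 and 21 in Tc9 replicate 2, against 502 and 240 counts of Hmox1. With Cd68 the sum was 246 in Tc1 and 460 in Tc9, and the part of myeloid RNA in the Hmox1 values was not tested.

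The sensing genes were led by the only member compared with both replicates of each kind. Aco1, the cytosolic aconitase that becomes an iron regulatory protein when it loses its iron-sulfur cluster (gene 11428, chr4:40143265-40199009), had 1352 and 1299 counts (10.2 and 9.72 FPKM) for Tc1 cells and 1339 and 1309 counts (10.3 and 10.2 FPKM) for Tc9 cells. The groups overlapped, at 9.95 ± 0.32 and 10.2 ± 0.09 FPKM (SD, n = 2 each). The log2 fold change over the 4 libraries was 0.0019 (SE 0.11, edgeR adjusted p = 0.992), with a 95% interval of -0.25 to 0.25, in a fit that called 34.1% of 1284 genes. The genes whose pattern over the 4 libraries was most like that of Aco1 were Cdk2, Rcbtb2 and Cds2, with root mean square differences of 0.0128, 0.0161 and 0.0181 between their centered log2 levels. Ireb2, which encodes the other iron regulatory protein (gene 64602, chr9:54862658-54912534), had 2095 counts (11.7 FPKM) in Tc9 replicate 2.

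Counted together, 7 of the 10 genes could be compared between the replicate 2 libraries, where 3 (Hmox1, Tfrc and Trf) were lower in Tc9 by more than the replicate spread and none was higher, where 9.94% of all genes were lower and 25.9% were beyond it either way. The median log2 ratio of the 7 was -0.37, beside -1.9e-05 over all 6226 genes. With depth alone 2 of the 7, Hmox1 and Trf, were lower by more than the spread and 0 were higher, where 8.11% of all genes were lower and 18.5% higher. In the 3-library fit, 1 of 4 members passed the test, Hmox1, where 20.4% of all genes did and 7.93% were lower, and the median fold change of the 4 was -0.25, beside 0.02 over all 2622 genes. The 10 genes were chosen with results of these libraries known, so these counts are descriptions.

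Around the 10 genes, a list of 85 further genes of iron and heme metabolism was read, of which 9, 16, 22 and 38 were reached by 4, 3, 2 and 1 libraries. In the 4-library fit 1 of 6 genes tested was lower in Tc9 and none was higher, where 34.1% of all genes were called, with a median log2 fold change of -0.16 beside 0.0014 over all genes. In the 3-library fit 1 of 18 was lower and none was higher, where 20.4% of all genes were called, with a median of -0.09. In the replicate 2 pair, 5 of 39 listed genes stood higher in Tc9 by more than the replicate spread and 2 lower, where 25.9% of all genes were beyond it in either direction, with 19 positive and 20 negative ratios and a median of -0.04. With depth alone 5 were higher and 0 lower, where 18.5% of all genes were higher and 8.11% lower.

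In the next steps of heme breakdown, Blvra, which reduces the biliverdin made by heme oxygenase to bilirubin, was read 818 and 863 times in the Tc1 libraries, above the 604 and 571 counts of the Tc9 libraries. It fell by 0.51 on the log2 scale (SE 0.12, edgeR adjusted p = 0.00878 over 4 libraries), but the adjusted p was 0.0992 without Tc1 replicate 1 (log2 fold change -0.56) and 0.199 without Tc1 replicate 2 (-0.47). Without Tc9 replicate 1 or 2 the log2 fold change was -0.56 and -0.47, in fits whose spread comes from the Tc1 pair alone. Blvrb, a flavin reductase that can also reduce biliverdin, was higher in Tc9 replicate 2 (320 counts) than in Tc1 replicate 2 (113 counts), by 1.46 on the log2 scale and with no test. Hmox2, the constitutive heme oxygenase, was at 1304 expected counts in Tc1 replicate 2, against 1102 and 1028 in the Tc9 libraries, with an edgeR adjusted p of 0.377. Of the genes that control Hmox1, the heme-binding repressor Bach1 had a log2 fold change of -0.18 (edgeR adjusted p = 0.384 over 4 libraries), and the redox-responsive activator Nfe2l2 had 1476 counts in Tc1 replicate 2 against 1121 in Tc9 replicate 2 (log2 ratio -0.43).

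In heme synthesis, 0 of 5 genes in the 3-library fit passed the edgeR test, where 20.4% of all genes did and so few genes say little. Alas1, the rate-limiting enzyme outside red cells, had 1098 and 1049 counts for Tc1 cells and 1031 and 1033 for Tc9 cells (log2 fold change -0.05, edgeR adjusted p = 0.736 over 4 libraries). Cpox (0.56, adjusted p = 0.101), Alad (-0.47, adjusted p = 0.162) and Fech, which inserts iron into the ring (0.14, adjusted p = 0.751), fell on both sides of 0 in the edgeR fit. Ppox, which acts just before Fech, went from 553 counts in Tc1 replicate 2 to 1023 in Tc9 replicate 2, and its log2 ratio of 0.86 lay beyond the replicate spread, with no test. Uros had 227 and 160 counts (-0.53), inside that spread. Erythroid markers were few, at 29 and 66 summed counts, and their part in these values was not tested.

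Among the transport genes named here, Slc39a14, which encodes the ZIP14 transporter for iron not bound to transferrin, had 1572 counts in Tc1 and 2844 in Tc9 (log2 ratio 0.82, not tested), in the opposite direction to Tfrc. The mitochondrial glycine carrier Slc25a38, needed to start heme synthesis, had 567 and 818 counts (0.50), the heme exporter Flvcr1 1735 and 1622 (-0.13) and the exporter Abcg2 229 and 157 (-0.57), all within the spread over all genes. Lrp1, the receptor for heme-carrying hemopexin, was at 364 counts in Tc1 replicate 2, against 418 and 613 in the Tc9 libraries (replicate 2 ratio 0.719 on the log2 scale, just beyond the spread of 0.717, edgeR adjusted p = 0.191 over 3 libraries), and Cp, a plasma ferroxidase, had 8, 19 and 15 (adjusted p = 0.317). The replicate 2 ratio of Cp, 0.74, had a counting interval of -0.33 to 2.08, which included 0. The iron chaperones that deliver iron to ferritin, Pcbp1 and Pcbp2, had log2 ratios of 0.0030 and 0.10, and Fbxl5, which marks the Ireb2 product for decay when iron is plentiful, 0.04. The mitochondrial iron importer Slc25a37 had 2180 expected counts in Tc9 replicate 2 and could not be compared.

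In the 3-library fit 1 of 5 genes of iron-sulfur cluster assembly, Hspa9, and 0 of 2 genes of mitochondrial iron passed the edgeR test, where 20.4% of all genes did. Hspa9, the mitochondrial chaperone that helps to hand over new clusters and also imports proteins, reached 35395 counts in Tc1 replicate 2, against 24578 and 21323 in the Tc9 libraries. It fell by 0.65 on the log2 scale (SE 0.23) over 3 libraries, 1 of them Tc1, with no spread among Tc1 pools. The call was lost without the filter on low counts (log2 fold change -0.65). It was also lost with limma on log2(FPKM + 1) (-0.58) and log2(FPKM + 0.1) (-0.58). Nfs1, the desulfurase that supplies the sulfur, went from 1480 counts in Tc1 replicate 2 to 897 in Tc9 replicate 2 (log2 ratio -0.75, not tested). Of 11 assembly genes compared in the replicate 2 libraries, 2 (Hspa9 and Nfs1) were lower in Tc9 by more than the replicate spread and none was higher, where 9.94% of all genes were lower, and the median was -0.24. With depth alone 0 of the 11 were beyond that spread, where 18.5% of all genes were higher and 8.11% lower.

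**Figure D5:**
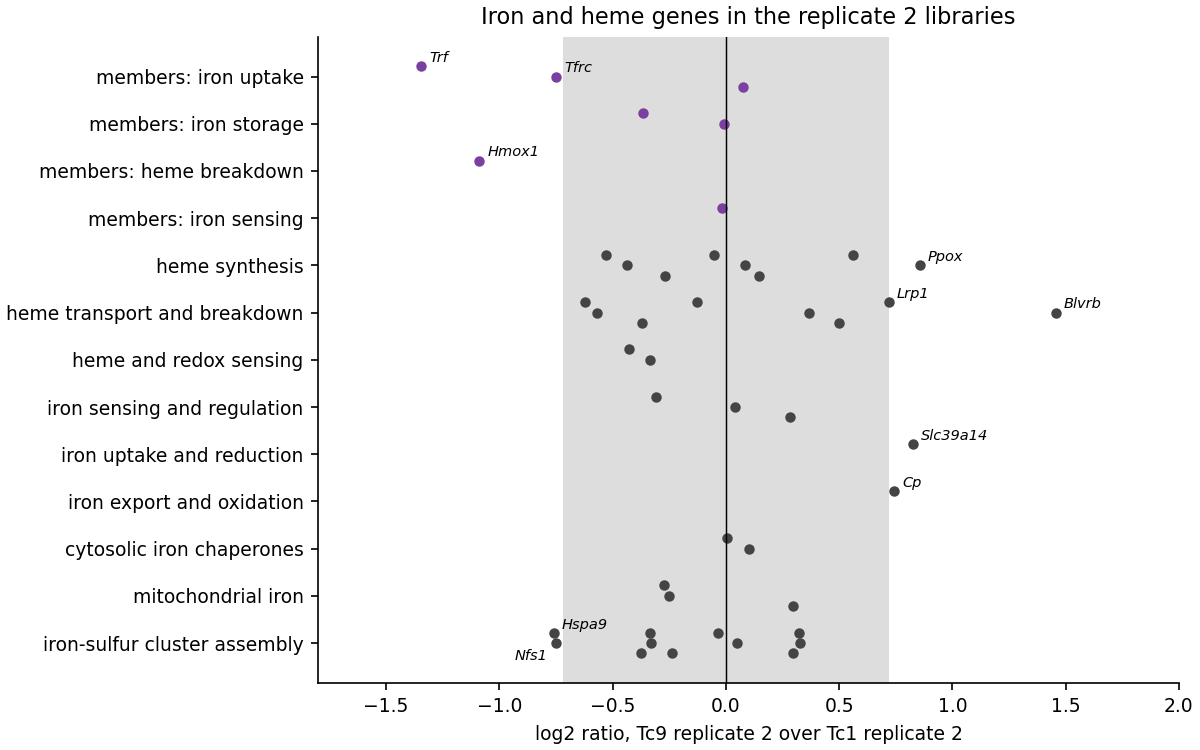
Log2 ratio of Tc9 replicate 2 to Tc1 replicate 2 for each iron or heme gene that passed the count filter, by role, with the 10-gene set in purple and the wider list in dark gray. The gray band marks the range that held 95% of genes between the Tc9 replicates (0.72 either way); the named genes lie outside it, with Hmox1, Tfrc and Trf below and Blvrb (1.46) farthest above.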

How the data were processed

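Tumor-infiltrating Tc1 and Tc9 cells (2 pooled RNA libraries each) were sequenced by the authors, and the deposited tables give, per gene, an expected count, an FPKM value and a mean transcript length. Per the labels the reads were set against mm10; the aligner and counter are not given in the sources used here. Library depth was 30822953 to 31927162 counts, summed for Tc9 replicate 2 and estimated for the others from the counts and FPKM of genes shared with it. Genes past the end of a table were not analysed here. Expected counts were rounded and tested with edgeR 4.0.16 in R 4.3.3 (quasi-likelihood, TMM scaling, filterByExpr with a minimum count of 10, Benjamini-Hochberg adjustment over all genes tested) over the genes reached by 4 libraries (1284 tested) or by 3 (2622 tested). Genes absent from a table before its end were set to 0. Genes reached only by the replicate 2 libraries were given as a log2 ratio with a prior count of 2 and a 95% Wilson interval, which covers counting error only, beside the spread between the Tc9 replicates. DESeq2 1.42.0, limma 3.58.1 on log2(FPKM + 1) and log2(FPKM + 0.1), other filters and scalings, and leaving out each library were alternatives. On simulated counts with 200 genes changed by a log2 fold change of 1, the 4-library fit recovered 98% (1284 genes) and the 3-library fit 92% (2622 genes). Each fit also made 9 false calls. The simulated spread was preset and the same in every library, not taken from these data, so these rates do not describe the power in these libraries.

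Members and lists were chosen with earlier results of these data known. Named from the wider list were genes past the test in the widest fit reaching them, and 9 fixed regulators and transporters. Of genes reached only by the replicate 2 libraries, up to 8 with the largest absolute ratios and 50 or more counts in a library were named. Cpox, Alad, Hmox2, Lrp1 and Cp were added after their values were seen. A listed gene is not reported here by name. Gene positions are from RefSeq and GENCODE on GRCm38, the build called mm10.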

Additional observations from a re-analysis of the deposited data

How the results depend on the processing

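Depth limits Trf and Slc40a1, and having 1 Tc1 library or none limits every member but Aco1. Over the 4 libraries, the main fit called 224 genes higher and 214 lower in Tc9. Without the filter 139 were lower, and with limma on log2(FPKM + 0.1) and no filter 115 were higher and 81 lower. Leaving out a library gave 99 to 424 higher and 74 to 430 lower (fewest without Tc1 replicate 2, most without Tc9 replicate 1), and 0 to 4 genes of the wider list; the edgeR counts of 0 came without either Tc1 library, with 1 listed gene at an unadjusted p under 0.05 each time. In the same fits with a library left out the Aco1 fold change was -0.018 to 0.024, and it changed sign without Tc1 replicate 2 (-0.018) or Tc9 replicate 1 (-0.016). Over 3 libraries, the main fit called 327 higher and 208 lower. With no filter edgeR called 0 and 0 (359 and 252 at an unadjusted p under 0.05), 0 genes of the wider list (3 unadjusted), and Hmox1 at -1.23 (adjusted p = 0.167). DESeq2 called 217 higher and 121 lower. Limma on log2(FPKM + 1) called 112 lower, and on log2(FPKM + 0.1) 197 higher and 78 lower, with 0 of the wider list each time (2 and 3 unadjusted). The Fth1 fold change changed sign with depth alone (0.0337), limma with 1 (0.0220) and limma with 0.1 (0.0221). Over all filtered alternatives the Hmox1 adjusted p was 1.27e-05 to 0.0426, and without either Tc9 library its value was -1.37 to -1.09. The Tfrc ratio was -0.67 with depth alone and -0.67 on log2(FPKM + 0.1). The cause of these shifts was not tested. Tc9 replicate 1 does not reach Tfrc, Trf or Slc11a2, so the planned mean over both Tc9 libraries gives no value for them.

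The replicate numbers are shared by both groups, but same-numbered samples did not deviate together (correlation -0.07 over 1284 genes). With the replicate block 231 genes were called higher and 213 lower, 406 of the 438 among them, and neither Aco1 nor Blvra changed its call.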
